A study of Homo sapiens with 6 samples.

Results

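The USP genes encode the ubiquitin-specific proteases, the largest human family of deubiquitinases, the enzymes that take ubiquitin off other proteins. They were taken from the gene table by symbol, as USP followed by a number with at most one closing X, Y or L. USP43 was included, and USP17L copies and pseudogenes were left out. That rule gave 52 genes of the 63241 in the table. Of these, 41 reached a mean of at least 1 FPKM (fragments scaled to exonic length and library size) over the 6 libraries and were tested among 11417 genes. The other 11 fell below that level and are described separately.

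The RNA was that of T24, a human bladder cancer cell line in wide use, grown in RPMI 1640 with fetal bovine serum. In one group, labelled WT, the cells had received the control small interfering RNA siNC (3 libraries). In the other, labelled as a USP43 knockdown, they had received siUSP43 (3 libraries). The comparison addressed how USP43 bears on lipid metabolism in bladder cancer. All 6 samples carry the same batch label, and both groups share line and medium. Duplex sequences, the time after transfection and whether the replicates were separate cultures are not stated in the labels. The p-values below therefore cover the variation among these 6 libraries alone, and that variation could be technical.

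Ubiquitin is joined to lysines of target proteins as single units or as chains, and different chain types send a protein to the proteasome, to the lysosome or to a signalling complex. A USP cuts the bond and so can keep a protein from being degraded, end a signal or recycle the ubiquitin. Members are told apart by the domains and partner proteins outside a shared catalytic fold. Those partners often activate the enzyme or bring it to its substrate. The abundance of an mRNA is only one of the levels at which these enzymes are controlled, and no protein or activity was measured here.

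Total gene counts ranged from 21430574 to 25577200 per library, and a tested USP gene had a median of 1446 counts per library. A gene with no count could still have been present at up to 3 counts, or 0.117 to 0.140 CPM (counts scaled to library size). Of 14 urothelial and epithelial markers, 5 (KRT7, KRT8, KRT18, FOXA1 and PPARG) reached a mean of 1 FPKM, while UPK1B, KRT20, KRT5 and TP63 lay under 0.1 FPKM. All 5 mesenchymal markers reached it. The summed level of the 5 mesenchymal markers was 684 to 685 FPKM in siNC and 512 to 535 in siUSP43, with most of the gap in FN1 (mean 214 against 77.7), while VIM was at 438 against 419. The epithelial sum was 522 to 538 against 463 to 526. The part of these shifts in the results below was not tested. None of 5 leukocyte, 4 endothelial or 5 fibroblast markers reached a mean of 1 FPKM. PTPRC, CD3E, PECAM1, VWF and DCN were under 0.1 FPKM. CD14 and COL1A1 lay nearer the bound. CD14, a leukocyte marker, had a mean of 0.953 FPKM in siNC and 0.467 in siUSP43. COL1A1, a fibroblast marker, had 0.813 and 0.883, with 168 to 234 counts per library. In bulk RNA, fewer cells of a type and less RNA per cell cannot be told apart.

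In the siNC libraries the family was spread over a wide range of levels. 5 members lay at 20 FPKM or more, 6 between 10 and 20, 26 between 2 and 10, 3 between 1 and 2, and 12 under 1. The 6 highest members, USP22, USP1, USP10, USP5, USP14 and USP11, held 46.5% of the summed FPKM of the family. USP22, the ubiquitin protease of the SAGA chromatin complex, was at 37.0 ± 0.735 FPKM (SD, n = 3) and USP1, which acts in DNA repair, at 36.0 ± 1.37. Their siNC libraries overlapped (36.3, 37.7 and 37.0 against 36.9, 36.7 and 34.4, replicates 1 to 3 here and below), so their order does not exceed the spread. The median tested member had 4.59 FPKM, against 5.68 for all tested genes. Replicates lay close together, with a median coefficient of variation of 4.27% in siNC and 6.80% in siUSP43, and it was higher in siUSP43 for 29 of the 41.

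**Figure D1:**
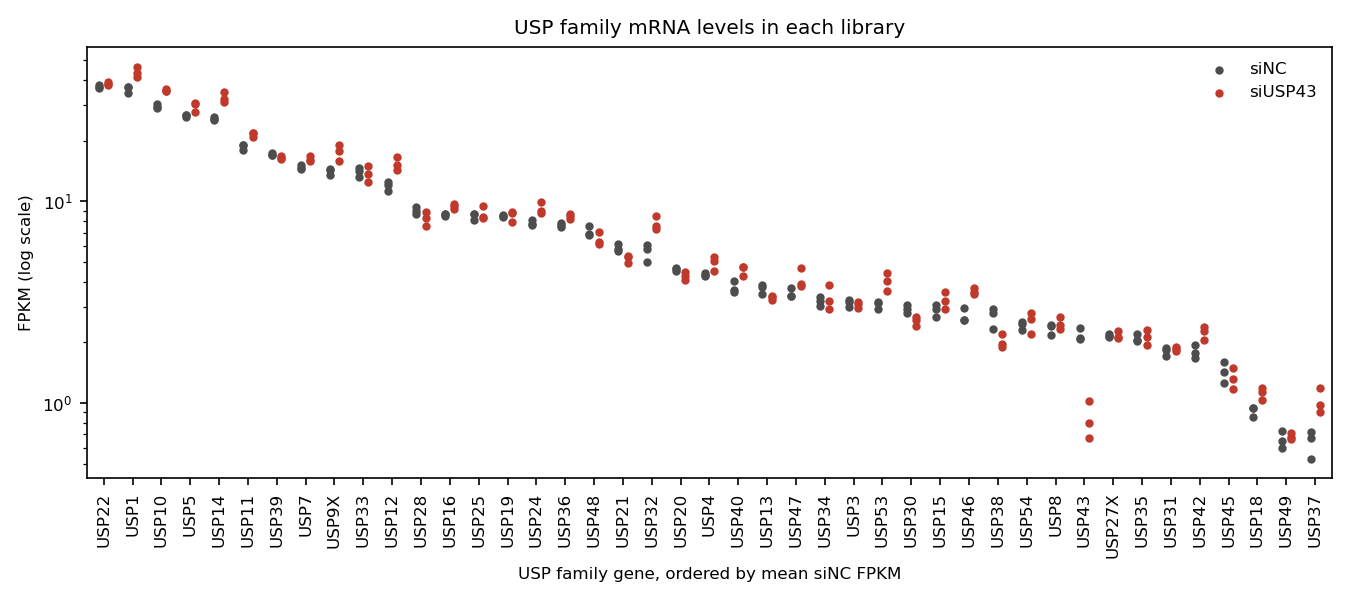
FPKM of 43 USP genes in each library on a log axis, ordered by their mean in siNC; grey points are siNC and red points siUSP43. The 5 most abundant members lie above 20 FPKM, and USP43 shows the widest gap between the groups.

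USP43 is the targeted gene (ENSG00000154914, GRCh38 chromosome 17, 9644698 to 9729687, plus strand). It had 343, 310 and 309 counts in siNC and 155, 86 and 123 in siUSP43. In FPKM the values were 2.36, 2.09 and 2.08 against 1.02, 0.67 and 0.80. All 3 siUSP43 libraries were below all 3 siNC libraries, and 38.1% of the mean FPKM was left. USP43 fell by 1.40 on the log2 scale (SE 0.14, adjusted p = 5.63e-06, edgeR's quasi-likelihood test with Benjamini-Hochberg adjustment, as for every adjusted p below). An exact two-sided permutation test of its FPKM gave p = 0.1, the smallest that 3 against 3 libraries allow. Among the family it moved from the 35th to the 42nd place by level. With a mean of 2.18 ± 0.159 FPKM in siNC it had been one of the less abundant tested members before the knockdown.

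USP31, the closest relative of USP43 by sequence, did not pass the test. Its FPKM was 1.87, 1.84 and 1.71 in siNC and 1.81, 1.85 and 1.89 in siUSP43, and its groups overlapped. The log2 difference was 0.02 (SE 0.06, adjusted p = 0.83). E2F1, the transcription factor named in the title of the study as stabilised by USP43, had 12.9, 12.9 and 12.4 FPKM in siNC and 18.7, 19.3 and 15.9 in siUSP43. The E2F1 mRNA rose by 0.48 on the log2 scale (SE 0.08, adjusted p = 2.05e-04), and E2F1 protein was not measured here.

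Beyond USP43, the family moved by small steps, and more members rose than fell. At an adjusted p under 0.05, 17 of the 41 tested members were higher in siUSP43 (41.5%, against 28.0% of all tested genes). 5 were lower, USP43 among them (12.2%, against 28.1% of all tested genes), and 19 did not pass. By library values alone, taken as counts scaled to library size with the TMM factors, 19 members had all siUSP43 libraries above all siNC libraries, where 31.2% of all tested genes did so, and 8 had them all below, where 31.2% did as well. In FPKM, USP22 joins the first set and USP28 leaves the second. The share that rose was above that over all genes and the share that fell was below it. That is a description of one list. The median log2 difference was 0.07 over the 41 members and 0.09 over the 40 without USP43, against -0.01 for all tested genes. The median, the number that rose and the number that fell all shift when single libraries are left out. The number that rose was 12 without siNC replicate 1 or 2, where 2824 and 2718 of the 11417 tested genes rose. It was 16 without siUSP43 replicate 2, where 3232 of all tested genes rose. The median over the 41 was 0.04 without siNC replicate 3, 0.10 without siNC replicate 1 or siUSP43 replicate 2, and 0.12 without siUSP43 replicate 1. The number that fell was 2 without siNC replicate 1 or siUSP43 replicate 1, where 2846 and 2783 of the 11417 tested genes fell. It was 3 without siNC replicate 2, where 2710 of all tested genes fell. In the main fit 3211 of all tested genes fell.

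The sizes were narrow among the tested members. Apart from USP43, 0 of 40 tested members differed by 0.5 or more on the log2 scale, whereas 2293 of the 11417 tested genes (20.1%) did. Of the members under 1 FPKM, USP37 differed by 0.66 and USP51 by -0.56 with edgeR's own filter on low counts. The USP51 difference did not pass there (adjusted p = 0.149). The median absolute log2 difference was 0.149 over the members and 0.236 over all tested genes. The middle of the family, between its lower and upper quartile, ran from -0.05 to 0.24, and that of all tested genes from -0.25 to 0.23. USP32 had the highest difference, at 0.45, and USP38 the lowest after USP43, at -0.43.

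**Figure D2:**
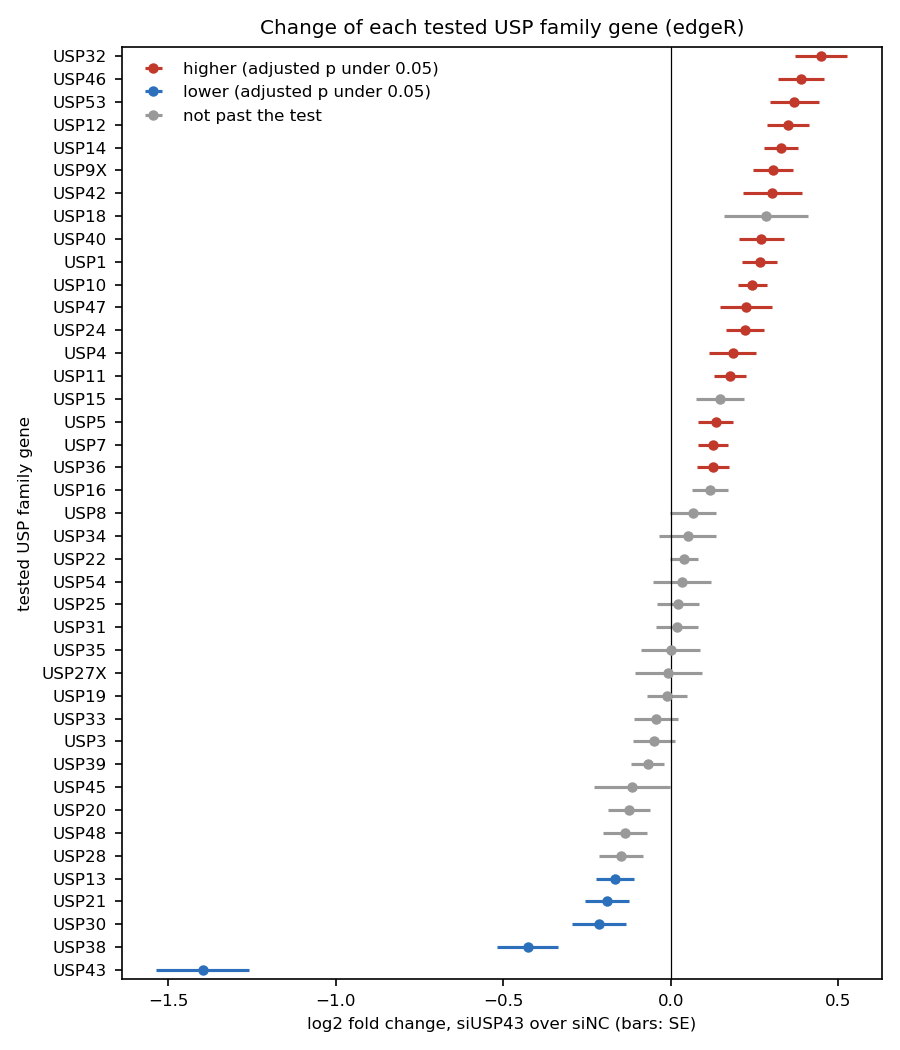
Log2 difference of siUSP43 over siNC with its standard error for the 41 tested USP genes, coloured by whether the gene was higher, lower or did not pass an adjusted p of 0.05. USP43 stands alone at -1.40, and the other tested members lie between -0.43 and 0.45.

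**Figure D3:**
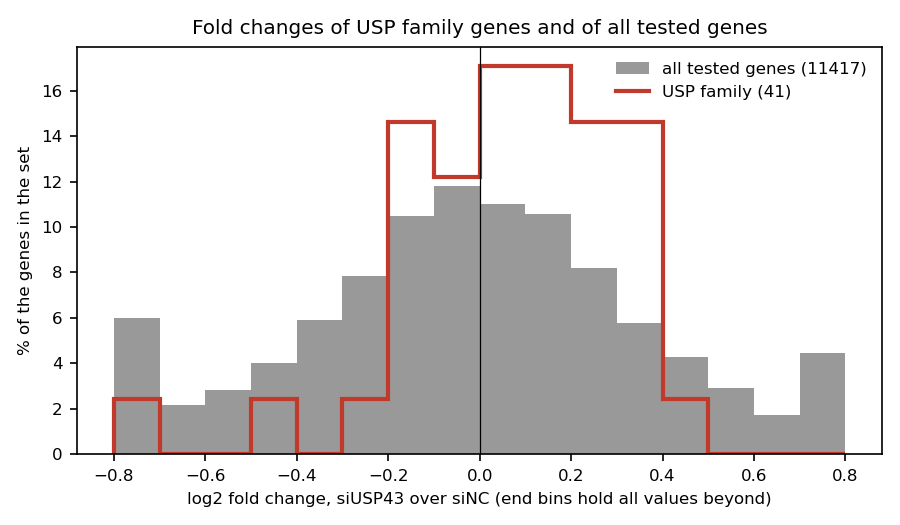
Share of genes in percent in each step of 0.1 of the log2 difference, for the 41 USP genes and all 11417 tested genes, with the end bins pooled. The USP genes sit closer to 0 and lean to the higher side.

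The part of the library held by USP genes was also larger in siUSP43. Such sums weigh abundant members most, and the 6 highest held 46.5% of the summed FPKM of the family in siNC. USP genes held 0.310%, 0.310% and 0.299% of gene counts in siNC and 0.335%, 0.325% and 0.355% in siUSP43. Their summed FPKM was 377, 378 and 366 against 411, 403 and 429. Both sums were higher in every siUSP43 library than in any siNC library, and their highest values were in siUSP43 replicate 3.

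The first role group comprises USP1, USP12 and USP46, the enzymes whose activity depends on the WD-repeat protein WDR48 (also called UAF1). USP1 takes ubiquitin off FANCD2 and PCNA in DNA repair, and USP12 and USP46 are close paralogs. All 3 rose, against 28.0% of all tested genes, in a hand-made list too short to set against that share. USP1 (ENSG00000162607, chromosome 1, 62436297 to 62451804, plus strand) had 36.9, 36.7 and 34.4 FPKM in siNC and 43.3, 41.4 and 46.5 in siUSP43, a log2 difference of 0.27 (SE 0.05, adjusted p = 0.00101). It became the most abundant member in siUSP43, ahead of USP22. USP12 (ENSG00000152484, chromosome 13, 27066156 to 27171811, minus strand) had 12.1, 12.5 and 11.3 FPKM against 15.2, 14.4 and 16.7, a log2 difference of 0.35 (SE 0.06, adjusted p = 5.31e-04). USP46 (ENSG00000109189, chromosome 4, 52590960 to 52659301, minus strand) had 2.95, 2.59 and 2.59 FPKM against 3.54, 3.49 and 3.73, a log2 difference of 0.39 (SE 0.07, adjusted p = 5.14e-04). No library of one group reached into the other for any of the 3 genes, and all 3 calls held in every alternative in which the gene was tested.

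Their partners went the other way or did not pass. WDR48 itself fell by 0.38 on the log2 scale (SE 0.08, adjusted p = 0.00193), from 3.83, 3.97 and 3.67 to 2.80, 2.73 and 3.37 FPKM. DMWD, a relative of WDR20 that binds USP12 and USP46, fell by 0.54 (SE 0.09, adjusted p = 2.58e-04), from 2.94, 2.91 and 2.52 to 1.98, 1.80 and 2.02 FPKM. For both genes every siUSP43 library was below every siNC library. WDR20, the second activator of USP12 and USP46, had 2.95, 3.07 and 2.81 against 3.25, 3.00 and 3.52 FPKM and did not pass (log2 difference 0.13, SE 0.07, adjusted p = 0.138); it passed only without siUSP43 replicate 2 (adjusted p = 0.0479). Of the USP1 substrates, PCNA rose by 0.16 (SE 0.05, adjusted p = 0.0111), a call that ended without siNC replicate 1 (adjusted p = 0.0669). FANCD2 was at 4.47 ± 0.0265 and 4.60 ± 0.101 FPKM and did not pass (adjusted p = 0.694).

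**Figure D4:**
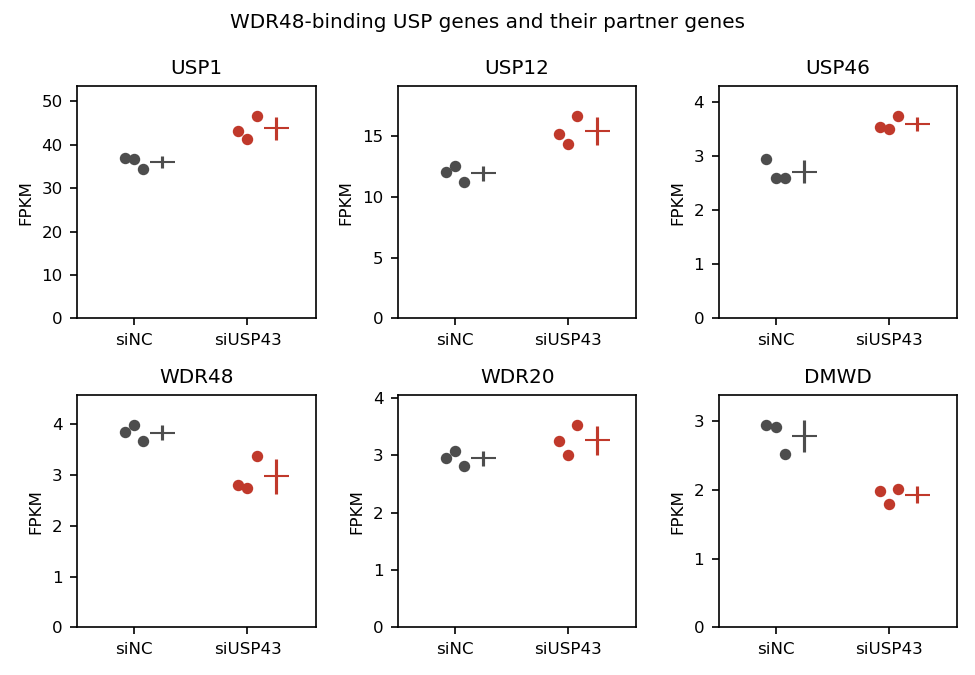
FPKM in each library (points) with the mean and SD of 3 libraries (bars) for USP1, USP12 and USP46 and the genes of their partners WDR48, WDR20 and DMWD, each axis starting at 0. The 3 USP genes are higher in siUSP43 and WDR48 and DMWD are lower, with no overlap between groups.

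Promoter windows of these 3 genes are shown because they moved together. Each runs from 250 bases before to 50 bases after a start site in RefSeq (GRCh38.p14) and is given on the strand of the gene, in lower case, with CCAAT (or ATTGG on the other strand) and CCGGAAG, the core of ETS-family sites, in capitals. The USP1 window is chr1:62436145-62436444 (plus strand) and its start site lies 98 bases inside the annotated gene. The USP12 window is chr13:27171762-27172061 (minus strand), and the USP46 window is chr4:52659252-52659551 (minus strand).
USP1: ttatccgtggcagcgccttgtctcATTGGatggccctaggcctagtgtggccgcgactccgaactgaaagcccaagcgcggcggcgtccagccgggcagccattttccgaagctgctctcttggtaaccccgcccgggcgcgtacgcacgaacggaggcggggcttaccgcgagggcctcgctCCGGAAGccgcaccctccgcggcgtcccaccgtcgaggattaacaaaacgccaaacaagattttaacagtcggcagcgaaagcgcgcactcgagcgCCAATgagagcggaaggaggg
USP12: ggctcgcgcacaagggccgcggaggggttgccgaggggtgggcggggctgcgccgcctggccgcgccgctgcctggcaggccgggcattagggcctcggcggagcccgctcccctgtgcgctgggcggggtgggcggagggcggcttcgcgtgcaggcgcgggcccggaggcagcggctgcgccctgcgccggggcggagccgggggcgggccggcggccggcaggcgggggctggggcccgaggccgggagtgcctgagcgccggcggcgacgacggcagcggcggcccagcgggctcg
USP46: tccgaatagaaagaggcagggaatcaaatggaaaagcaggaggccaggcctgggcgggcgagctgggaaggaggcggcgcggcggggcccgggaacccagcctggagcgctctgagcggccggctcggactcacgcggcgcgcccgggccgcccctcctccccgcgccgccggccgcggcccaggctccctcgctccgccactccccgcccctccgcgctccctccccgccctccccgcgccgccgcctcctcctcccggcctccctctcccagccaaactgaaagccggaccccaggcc
The USP1 window holds ATTGG 226 bases before the start site, CCGGAAG 67 bases before it and CCAAT 29 bases after it. The windows of USP12 and USP46 hold none of the motifs searched, and they are richer in G and C (84.3% and 76.7%, against 64.3% for USP1).

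Across the family, 39 of the 52 members had a promoter window in the RefSeq table and 13, USP43 and USP37 among them, did not. The motifs were searched on both strands, with a gene counted if any of its windows held one. CCAAT was found for 12 of the 39 (30.8%, against 42.1% of 15843 protein-coding genes and 43.9% of tested genes with a window). It was in 6 of the 14 that rose (USP1, USP5, USP7, USP11, USP47 and USP53), in 2 of the 4 that fell and in 3 of the 16 that did not pass. CCGGAAG was found for 13 of the 39 (33.3%, against 16.5% of protein-coding genes and 24.6% of tested genes with a window), and in 3 of the 14 that rose, in 2 of the 4 that fell and in 7 of the 16 that did not pass. The E2F letters TTTCGCGC and TTTGGCGC were in 0 of the 39, against 1.99% of protein-coding genes, and the cyclic-AMP element TGACGTCA also in 0, against 3.00%. These counts say only which letters the windows hold.

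The second role group is a hand-made list of 8 enzymes with a reported link to MDM2, a ubiquitin ligase, or to its partners. It holds USP2, USP4, USP5, USP7, USP10, USP11, USP15 and USP42, and USP2 lay below the level filter. Of the 7 tested members, 6 rose (85.7%, against 28.0% of all tested genes) and 1 did not pass. USP13 and USP36, the paralogs of USP5 and USP42, were listed in other groups, and USP13 fell while USP36 rose. USP10, a cytoplasmic enzyme that binds the stress-granule protein G3BP1, had 30.3, 29.3 and 29.2 FPKM in siNC and 35.1, 35.2 and 36.1 in siUSP43, a log2 difference of 0.24 (SE 0.04, adjusted p = 4.13e-04). USP42, a paralog of USP36, had 1.78, 1.95 and 1.67 against 2.27, 2.06 and 2.39, a difference of 0.30 (SE 0.09, adjusted p = 0.0112). In both genes every siUSP43 library was above every siNC library. USP7, which acts on MDM2, had 14.58, 14.46 and 15.11 FPKM against 16.02, 15.93 and 16.78, a difference of 0.13 (SE 0.05, adjusted p = 0.0339). USP5, which takes apart free ubiquitin chains, had 26.2, 26.8 and 26.8 against 30.2, 30.7 and 27.7, a difference of 0.13 (SE 0.05, adjusted p = 0.0438). Both are rises of under 10%.

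USP4, USP11 and USP15 are paralogs with a shared N-terminal domain pair. USP11 had 18.04, 19.09 and 19.02 FPKM in siNC and 21.74, 21.71 and 20.74 in siUSP43 (log2 difference 0.18, SE 0.05, adjusted p = 0.00793). USP4 had 4.30, 4.26 and 4.40 against 4.51, 5.07 and 5.32 (0.18, SE 0.07, adjusted p = 0.0427). USP15 had 3.05, 2.94 and 2.68 against 3.22, 2.93 and 3.55 and did not pass (0.15, SE 0.07, adjusted p = 0.103), and its groups overlapped. Exons of USP4 overlap those of C3orf62, and without a stated strand setting their reads cannot be told apart. The calls of this group differ in how far they rest on one library. USP10 and USP42 kept theirs whichever library was left out. That of USP11 ended only without siNC replicate 1 (adjusted p = 0.0514). That of USP7 ended without siNC replicate 1 or 2 or siUSP43 replicate 1 or 3 (up to 0.141), that of USP4 without any one library except siUSP43 replicate 1 (up to 0.122), and that of USP5 without any one library except siUSP43 replicate 3 (up to 0.141). USP15 passed without siUSP43 replicate 2 (0.0194).

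GMPS, the guanine nucleotide synthesis enzyme that binds USP7, rose by 0.36 (SE 0.04, adjusted p = 2.23e-05), from 21.2 ± 0.161 to 27.6 ± 0.760 FPKM (SD, n = 3). MDM2 rose by 0.27 (SE 0.07, adjusted p = 0.00546) and MDM4 fell by 0.29 (SE 0.07, adjusted p = 0.00311). G3BP1, the stress-granule partner of USP10, and SART3, which recruits USP4 and USP15, did not pass (adjusted p = 0.238 and 0.614). G3BP1 was lower without siUSP43 replicate 3 (adjusted p = 0.0303).

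At the proteasome and in the recycling of chains, 1 of 2 members rose and 1 fell, in a list too short to set against the shares of all tested genes (28.0% and 28.1%). USP14, which docks on the proteasome and trims ubiquitin from proteins bound there, had 25.2, 26.3 and 25.5 FPKM in siNC and 32.0, 31.0 and 34.9 in siUSP43. The log2 difference was 0.33 (SE 0.05, adjusted p = 1.78e-04), the smallest adjusted p among the members that rose. Exons of USP14 (ENSG00000101557, chromosome 18, 158383 to 214629, plus strand) overlap those of THOC1. PSMD2, the proteasome subunit to which USP14 binds, rose by 0.18 (SE 0.04, adjusted p = 0.00393), from 121, 123 and 125 to 140, 147 and 137 FPKM. USP13, a paralog of USP5, had 3.86, 3.78 and 3.47 against 3.25, 3.35 and 3.40 FPKM and fell by 0.17 (SE 0.06, adjusted p = 0.0250). USP5 rose and USP13 fell, each by a small step. The USP13 call ended without siNC replicate 1 or 2 or siUSP43 replicate 1 (adjusted p up to 0.109). In all it was lost in 7 of 14 alternatives, those with limma among them.

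Members of the endosome, membrane and receptor-sorting group split. Of 6 tested, 2 rose (33.3%, against 28.0% of all tested genes) and 0 fell. USP32 (ENSG00000170832, chromosome 17, 60177327 to 60422470, minus strand), a membrane-anchored enzyme of the endosomal and Golgi system, had 6.08, 5.83 and 4.98 FPKM in siNC and 7.55, 7.26 and 8.50 in siUSP43. It rose by 0.45 (SE 0.08, adjusted p = 4.38e-04), or 36.6%, the largest rise among the tested members. USP9X, a very large enzyme that stabilises MCL1 and trafficking proteins, had 14.3, 14.4 and 13.6 against 17.7, 15.9 and 19.1 FPKM (0.30, SE 0.06, adjusted p = 0.00103). In both genes siUSP43 replicate 3 was the highest library and the groups did not overlap. USP8, the deubiquitinase of the ESCRT machinery that sorts receptors such as EGFR, had 2.45, 2.40 and 2.18 against 2.43, 2.32 and 2.68 and did not pass (0.07, SE 0.07, adjusted p = 0.423). USP33, USP20 and USP19 did not pass either (log2 differences -0.04, -0.13 and -0.01). STAM2, a partner of USP8 on endosomes, fell by 0.55 (SE 0.07, adjusted p = 6.32e-05), from 6.58, 6.75 and 6.57 to 4.85, 4.03 and 4.87 FPKM, while its paralog STAM did not pass (0.07, SE 0.07, adjusted p = 0.436).

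Of the large and other members, 3 of 4 rose (75%, against 28.0% of all tested genes). This list too was made by hand and is too short to set against that share. USP24, which like USP9X is a very large protein, had 7.72, 8.10 and 7.61 FPKM in siNC and 8.94, 8.74 and 9.97 in siUSP43 (log2 difference 0.22, SE 0.06, adjusted p = 0.00545). USP40 had 4.02, 3.55 and 3.65 against 4.71, 4.28 and 4.70 (0.27, SE 0.07, adjusted p = 0.00478). USP47, which acts on DNA polymerase beta in base excision repair, had 3.70, 3.39 and 3.38 against 3.90, 3.82 and 4.65 (0.23, SE 0.08, adjusted p = 0.0258). Every siUSP43 library of these 3 genes was above every siNC library, but the USP47 call ended without siNC replicate 2 or 3 or siUSP43 replicate 3 (adjusted p up to 0.0966). USP34, a regulator of Wnt signalling through axin, had 3.21, 3.34 and 3.02 against 3.22, 2.94 and 3.86 and did not pass (0.05, SE 0.09, adjusted p = 0.633).

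Among members long described as lacking catalytic activity, USP53, a tight-junction protein, rose by 0.37 (SE 0.07, adjusted p = 0.00124), from 3.16, 3.14 and 2.92 to 4.01, 3.61 and 4.41 FPKM. Its relative USP54 had 2.53, 2.47 and 2.31 against 2.19, 2.62 and 2.78 FPKM, with overlapping groups, and did not pass (0.03, SE 0.09, adjusted p = 0.753). USP39, a splicing factor of the tri-snRNP, was abundant at 17.0 ± 0.199 FPKM and was 16.4 ± 0.316 in siUSP43. Its log2 difference of -0.07 (SE 0.05, adjusted p = 0.239) did not pass, although its libraries did not overlap. Exons of USP39 overlap those of C2orf68 and TMEM150A.

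Members grouped by hand under histones H2A and H2B were mostly flat. A histone role is not shown here for each of them, USP45 among those without. Of 9 in the group, 6 were tested, 0 rose (against 28.0% of all tested genes) and 1 fell (16.7%, against 28.1%). USP22, the most abundant member in siNC, had 36.3, 37.7 and 37.0 FPKM in siNC and 37.9, 38.3 and 39.1 in siUSP43 (log2 difference 0.04, SE 0.04, adjusted p = 0.444). USP16, which acts on H2A in mitosis, had 8.70, 8.49 and 8.61 against 9.14, 9.70 and 9.47. Its groups did not overlap, but it did not pass (0.12, SE 0.05, adjusted p = 0.0804). USP21, an H2A deubiquitinase, had 6.15, 5.77 and 5.66 against 5.28, 5.34 and 4.97 and fell by 0.19 (SE 0.07, adjusted p = 0.0275), a call that ended without siNC replicate 1 or 2 or siUSP43 replicate 1 or 3 (adjusted p up to 0.123). In all the USP21 call was lost in 7 of 15 alternatives, that with DESeq2 among them. USP3, USP27X and USP45 had log2 differences of -0.05, -0.01 and -0.12 and did not pass.

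USP22 works inside SAGA with ATXN7L3, ENY2 and ATXN7, and only the first and the last of these fell. ATXN7L3, which activates USP22, fell by 0.43 (SE 0.05, adjusted p = 1.67e-05), from 15.68, 16.45 and 15.36 to 12.05, 11.66 and 12.03 FPKM. ENY2 had 15.2, 14.8 and 15.2 against 15.3, 15.3 and 15.0 FPKM (log2 difference -0.01, SE 0.04, adjusted p = 0.919). ATXN7 fell by 0.27 (SE 0.10, adjusted p = 0.0355), but its libraries overlapped (2.06, 2.41 and 1.89 against 1.73, 1.57 and 2.00) and the call ended without siNC replicate 1 or 2 or siUSP43 replicate 1 or 2 (adjusted p up to 0.177). The partners in this module did not move as one, and USP22 did not pass.

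In the cell-cycle group, 1 of 4 tested members rose (25%, against 28.0% of all tested genes). USP36, a nucleolar enzyme that stabilises MYC, had 7.48, 7.77 and 7.62 FPKM in siNC and 8.44, 8.15 and 8.64 in siUSP43 (log2 difference 0.13, SE 0.05, adjusted p = 0.0420). That call held only without siUSP43 replicate 2 when single libraries were left out (adjusted p up to 0.149). USP28, which also stabilises MYC, had 9.34, 8.92 and 8.70 against 8.22, 7.53 and 8.83 FPKM and did not pass (-0.15, SE 0.06, adjusted p = 0.0698). Without siUSP43 replicate 3 it was lower (adjusted p = 0.00680), as was USP48 (main difference -0.14, adjusted p = 0.0948; without that library 0.00614). USP25, the paralog of USP28, was flat (0.02, SE 0.06, adjusted p = 0.777).

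USP37, which counters APC/C and acts on cyclin A at the G1/S border, lay below the level filter. Its counts were 179, 196 and 145 in siNC and 271, 211 and 334 in siUSP43, and its FPKM 0.67, 0.72 and 0.53 against 0.98, 0.90 and 1.19. No siUSP43 library was as low as any siNC library. With edgeR's own filter on low counts it rose by 0.66 (SE 0.13, adjusted p = 9.32e-04), a larger difference than any tested member other than USP43 showed. It had at least 145 counts in every library, and its mean over the 6 libraries stayed under 1 FPKM.

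Of 3 members grouped by hand under mitochondria, 2 fell (66.7%, against 28.1% of all tested genes). No mitochondrial role of USP38 is shown here, and the list is too short to set against that share. USP38 (ENSG00000170185, chromosome 4, 143184917 to 143223874, plus strand), a paralog of USP35, had 2.81, 2.94 and 2.33 FPKM in siNC and 1.97, 1.89 and 2.21 in siUSP43, and fell by 0.43 (SE 0.09, adjusted p = 0.00181). Of the falls other than that of USP43, this was the only call that held in every alternative in which the gene was tested. USP30, anchored in the outer mitochondrial membrane where it opposes mitophagy, had 2.93, 2.80 and 3.05 against 2.42, 2.68 and 2.57 and fell by 0.21 (SE 0.08, adjusted p = 0.0383). That call ended without siNC replicate 1 or 3 or siUSP43 replicate 1 (adjusted p up to 0.133). In all it was lost in 9 of 14 alternatives, those with DESeq2 and limma among them. USP35 was at 2.10 ± 0.0896 and 2.12 ± 0.170 FPKM, with overlapping groups and a log2 difference of 0.00 (SE 0.09, adjusted p = 0.996), and its exons overlap those of KCTD21.

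USP18 removes the ubiquitin-like protein ISG15 and restrains the type I interferon receptor through STAT2. It had 110, 114 and 102 counts in siNC and 140, 108 and 147 in siUSP43, or 0.94, 0.95 and 0.85 against 1.14, 1.04 and 1.19 FPKM. All siUSP43 libraries were above all siNC libraries in FPKM, but the difference of 0.28 (SE 0.13) did not pass (adjusted p = 0.0720). STAT2 fell by 0.58 (SE 0.05, adjusted p = 3.84e-06), from 6.28, 5.95 and 6.27 to 4.16, 4.09 and 4.25 FPKM. ISG15 fell by 0.59 (SE 0.10, adjusted p = 3.47e-04), from 46.0, 47.3 and 52.9 to 33.7, 37.0 and 27.6 FPKM. So the mRNAs of ISG15 and STAT2 fell while that of USP18 lay higher without passing. USP41, a near-identical copy of part of USP18, had 0 counts in all 6 libraries, and reads shared by the pair may have been assigned to either.

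The remaining members below the level filter gave little RNA. USP49 had 0.60 to 0.73 FPKM in all 6 libraries and overlapping groups. USP51, of the USP22 subfamily, had 14 to 63 counts, USP6, a paralog of USP32, 13 to 28, and USP50 12 to 29, with exons that overlap USP8. USP44 had 2 to 8 counts. USP2, a MDM2 and cyclin D1 deubiquitinase, had 8, 13 and 9 counts against 3, 4 and 2, a fall with an adjusted p of 0.0408 when no filter was applied. USP26 and USP9Y had at most 1 count in any library and USP29 none. For these the depth cannot tell absence from a level under the floor given above.

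Counts of the wider ubiquitin system are set beside the family. Of 30 tested deubiquitinases outside the USP family (of 35 listed), 9 rose (30.0%, against 28.0% of all tested genes) and 6 fell (20%, against 28.1%), with a median log2 difference of 0.05. BAP1 fell by 0.68 (adjusted p = 1.71e-06), MINDY2 by 0.68 (adjusted p = 4.07e-04) and OTUB1 by 0.49 (adjusted p = 1.08e-04), while OTUD6B rose by 0.42 (adjusted p = 6.47e-04). Among the tested USP genes other than USP43, only USP32 and USP38 differed by as much as OTUD6B. Of 3 USP-fold genes whose symbols lie outside the rule, USPL1 rose by 0.26 (adjusted p = 0.0103), and CYLD and PAN2 did not pass (adjusted p = 0.533 and 0.796). Of 13 tested partner and cofactor genes, 2 rose (15.4%, against 28.0% of all tested genes) and 6 fell (46.2%, against 28.1%), with a median of -0.07.

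Of 32 tested E1 and E2 enzymes, which charge and hand over ubiquitin, 9 rose (28.1%) and 10 fell (31.2%), close to the 28.0% and 28.1% of all tested genes, with a median of 0.01. UBE2N, UBE2E3, UBE2W and UBE2L3 fell by 0.62, 0.61, 0.52 and 0.48. Of the 4 ubiquitin precursor genes, 0 rose and 1 fell (25%, against 28.1% of all tested genes), RPS27A by 0.14 (adjusted p = 0.0301); that call ended without siNC replicate 2 or 3 or siUSP43 replicate 1 or 3 (adjusted p up to 0.125). Of 27 tested genes of proteins known as USP substrates (of 28 listed), 8 rose (29.6%) and 9 fell (33.3%), near the shares of all tested genes, with a median of 0.02. Examples are CCND1, which fell by 0.90, and TGFBR1, which rose by 0.77. The list also counts ISG15, which is the ubiquitin-like protein that USP18 removes.

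Libraries differed in where the family lay. In siUSP43, replicate 3 was the highest of its group for 30 of the 41 tested members (73.2%, against 40.1% of all tested genes) and replicate 2 the lowest for 23 (56.1%, against 36.0%). In siNC, replicate 1 was the highest for 19 (46.3%, against 32.7%) and replicate 3 the lowest for 21 (51.2%, against 38.3%). The median member lay at 0.04, 0.06 and 0.15 on the log2 scale against the siNC mean in siUSP43 replicates 1, 2 and 3. The difference between replicates 3 and 2 of siUSP43 had a Spearman rho of 0.54 with exonic size across the 41 members and of 0.37 across the 11417 tested genes. These points share the 2 libraries and are no independent replicates. Without siUSP43 replicate 3, 13 members rose and 6 fell, and the median was 0.06. In that fit 3273 of the 11417 tested genes rose and 3275 fell. Without siNC replicate 3, 13 members rose and 4 fell, and the median was 0.04. There 2800 of all tested genes rose and 2771 fell. The log2 difference itself had a rho of 0.15 with exonic size across the members and 0.13 across all tested genes.

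**Figure D5:**
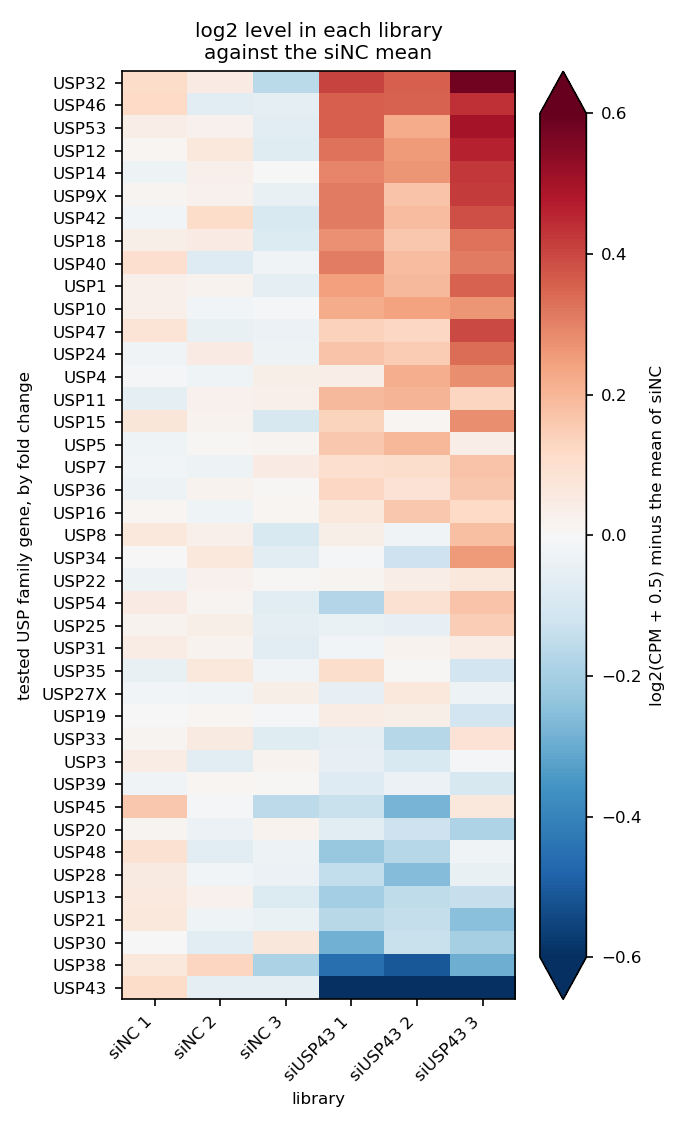
Log2 CPM of each tested USP gene in each library minus its siNC mean, as a colour scale from -0.6 to 0.6, with genes as rows and the 6 libraries as columns. The siUSP43 columns are mostly warm in the upper rows, and replicate 3 is the warmest of them.

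In the 3' untranslated regions of GENCODE release 29, the 7-base words GGATCCA and GATCCAA, chosen in earlier work on these same fold changes, were found in 0 of 17 members that rose, 1 of 5 that fell (USP30) and 6 of 19 that did not pass. Over all tested genes with such a region the shares were 8.21%, 16.4% and 8.61%. The family gives no count large enough to compare, and the words were chosen from these data, so they support nothing further.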

How the data were processed

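RNA-seq of 3 siNC and 3 siUSP43 libraries of T24 cells was analysed. The deposited table holds raw read counts per gene, not normalized, and FPKM scaled by the authors to exonic size and library total, per the file headers. Reads were trimmed and aligned with cutadapt 2.6 and HISAT2 2.2.1 on GRCh38, per the submitters' processing notes. The counter, annotation release, strand setting and treatment of multiply mapped reads are not given in the sources used here, so reads of near-identical or overlapping genes may be split or shared. Groups and replicate numbers came from the sample titles.

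Counts were tested with edgeR 4.0.16 (R 4.3.3; quasi-likelihood, TMM scaling, group as the only term, two-sided) over the 11417 genes with a mean of at least 1 FPKM, with USP43 and E2F1 kept whatever their level, and Benjamini-Hochberg adjustment at 0.05. Total counts were 21430574 to 25577200 per library. Of the steps, only this edgeR test was also run on simulated counts with known folds. Alternatives used DESeq2 1.42.0, limma 3.58.1, other scalings and filters, a replicate block, and each library left out. Exon overlaps and 3' untranslated regions came from GENCODE release 29 and promoters from RefSeq (GRCh38.p14). The text names every tested member, the tested partner genes and, from each other list, at most 4 of the genes with the smallest p-values. Some substrates of the members described are added, and not all of these are given values. The members, gene lists and named genes were chosen with earlier results of these data known. One listed gene is not reported here.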

Additional observations from a re-analysis of the deposited data

How the results depend on the processing

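No call reversed in any of the 15 alternative fits. Of the 21 called members other than USP43, 12 kept their call in every fit in which they were tested (USP1, USP9X, USP10, USP12, USP14, USP24, USP32, USP38, USP40, USP42, USP46 and USP53) and 9 lost it in at least 1. Calls were lost in 9 of 14 fits for USP30, 8 of 15 for USP36 and 7 of 15 for USP5 and USP21. They were lost in 7 of 14 fits for USP13, 6 of 15 for USP7 and 6 of 14 for USP4. For USP47 it was 5 of 14 and for USP11 1 of 15. Of the 19 that did not pass, 4 passed in at least 1. USP43 stayed past the threshold in each of the fits that tested it (that at a mean of at least 5 FPKM did not), between -1.57 and -0.80 on the log2 scale, the latter with limma on log2(FPKM + 1), which understates changes of low genes. Against 17 members higher and 5 lower, 3 were lower with DESeq2, with limma at either pseudocount (0.1 or 1) and with no filter. Over all tested genes, 3211 were lower in the main fit, 3049 with DESeq2, and 2910 and 2917 with limma (pseudocounts 0.1 and 1). With no filter it was 4070 of 33934. At a mean of at least 5 FPKM, which tests only 20 members, 11 were higher and 1 lower, and 1889 and 1892 of all genes. At a fold of at least 1.5, 0 members were higher and 1 lower, and at an adjusted p under 0.01, 11 and 2. No count over all tested genes is given here for these thresholds, so these member counts have no share to stand against. Leaving out single libraries gave 12 to 16 higher and 2 to 6 lower, a median log2 difference of 0.04 to 0.12, and 2718 to 3273 higher and 2710 to 3275 lower over all genes. Except where the alternative tests fewer genes or samples, the cause was not tested.

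With the replicate number as a block, 13 members were higher and 2 lower, 2775 and 2841 over all genes, and USP43 was at -1.41. Same-numbered libraries did not deviate together (correlations of -0.04, -0.17 and -0.35). Libraries of unlike number had correlations from -0.23 to 0.36. With 3 libraries a group, such values cannot tell whether the numbers pair the samples, and the labels do not say. Some differences near 10% passed in the main fit, such as that of USP36 (9.1% higher, adjusted p = 0.0420). USP18 lay 21.8% higher and did not pass (adjusted p = 0.0720). The smallest difference that the test can call with 3 libraries a group was not measured.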
